A study of Mus musculus with 8 samples.

Results

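DRIP-seq peaks that were called in both libraries without doxycycline and in neither library with doxycycline are described here as the shared mock-only regions. Overlapping peaks of the 4 lists (at least 1 bp) were merged into 194961 union regions, and a region was kept when it held a peak of both mock lists and no peak of either doxycycline list, which left 5123 regions, 2.63% of the union. The regions were thus chosen by the presence and absence of called peaks, so presence, score and fold enrichment are given below as descriptions. Sequence, position and gene content played no role in the choice.

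The cells were mouse embryonic fibroblasts (MEFs, labelled Rtel1F/F;WT RNH1-GFP) with floxed *Rtel1*, the gene of a DNA helicase, and a doxycycline-inducible transgene for wild-type (WT) RNaseH1 fused to GFP, which the controls carried too. Adenovirus expressing GFP left *Rtel1* intact (GFP cells) and adenovirus expressing Cre-GFP deleted it (Cre cells). Doxycycline treatment began 48 h after infection and lasted a further 48 h at 2 µg/ml (DOX), and mock cells went without it. Each of the 4 conditions, GFP or Cre cells with mock or DOX treatment, had 1 DRIP library, so no difference between conditions was tested, and 95% intervals (exact binomial for shares, order statistics for medians) cover counting error over regions only. Neither the deletion nor the transgene could be checked from peak lists, and parallel immunoprecipitations of a condition were pooled before library construction.

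An R-loop is an RNA:DNA hybrid with a displaced single strand of DNA, and it forms where nascent RNA anneals back to its template. The S9.6 antibody recognises the hybrid, and RNaseH1 cleaves its RNA strand. Hybrids with a purine-rich RNA strand are especially stable, and a G-rich displaced strand can fold into a G-quadruplex (G4), a stack of guanine quartets. In mammalian genomes R-loops are well known at CpG-rich promoters, just downstream of the transcription start site.

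The lists differed before any region was chosen. They held 60219 to 105081 peaks, and the smallest peak was 106 bp wide in GFP mock and 107 bp in GFP DOX, but 132 bp for Cre mock and 213 bp for Cre DOX. The Cre DOX list stood apart, covering 89.0 Mb against 32.1 to 47.6 Mb in the other lists. Regions found in Cre DOX alone were mostly repeat-masked (over 50% of their bases) in 74.4% of cases with a median GC content of 42.1%, against 38.7% and 47.5% for regions found in GFP DOX alone. Read depth is unknown. Fibroblast marker genes could not serve as a check of the cells, since 6 of 11 had peaks in both mock lists, against 2 of 8 marker genes of other cell types, and a DRIP peak does not measure expression.

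The sequences below show what the regions looked like. All are on the plus strand of mm10 (GRCm38). For each kind, the regions were taken in order of rank (the lower of their 2 within-list percentiles of −log10 q), leaving out regions over 50% repeat-masked, 1 chromosome that is not shown here, windows that touch an annotated exon and regions already shown. The first is the best-ranked region, in an intron shared by *C1qtnf7* and Gm15866 (chr5:43581198-43581317, no capitals), which had neither a G4 nor a purine tract.
C1qtnf7 intron: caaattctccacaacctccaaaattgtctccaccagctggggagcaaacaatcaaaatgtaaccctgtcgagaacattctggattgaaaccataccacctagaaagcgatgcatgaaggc
The next 3 are the best-ranked regions with a tract of at least 25 bases that is all purine on one strand. Here the purines are on the minus strand, so the capitals mark an unbroken pyrimidine run, printed over 47, 27 and 46 bases. The run at *Crp* continues beyond the start of the region, to 110 bases. They lie in introns of *Rbpj*, the DNA-binding factor of Notch signalling (chr5:53517000-53517119), and of *Rnls* (chr19:33165251-33165363), and 1017 bp upstream of *Crp*, the gene of C-reactive protein (chr1:172696952-172697034).
Rbpj intron: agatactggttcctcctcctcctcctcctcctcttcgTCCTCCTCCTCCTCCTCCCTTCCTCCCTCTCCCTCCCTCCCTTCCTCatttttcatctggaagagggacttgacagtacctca
Rnls intron: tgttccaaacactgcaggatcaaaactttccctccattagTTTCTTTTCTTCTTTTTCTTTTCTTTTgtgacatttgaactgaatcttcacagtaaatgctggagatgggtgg
Crp upstream: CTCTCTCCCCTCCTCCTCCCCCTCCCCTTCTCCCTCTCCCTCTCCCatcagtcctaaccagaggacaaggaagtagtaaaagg
The last 4, of which the fourth is shown as a promoter region, hold a predicted G4, defined as a window of 25 bases with an absolute G4Hunter score (mean of G runs minus C runs) of at least 1.5, and the capitals mark the highest-scoring window. The windows lie in introns of *Ctdspl* (chr9:118951152-118951271, absolute score 1.8, G-rich on the minus strand) and *Apod* (chr16:31312714-31312804, 2.52), in intergenic sequence with *Pmp22* as the nearest coding gene (chr11:63465035-63465154, 1.52), and in the promoter of *Lcp2*, which encodes an adaptor of T cell receptor signalling (chr11:34078852-34078971, 2.96).
Ctdspl intron: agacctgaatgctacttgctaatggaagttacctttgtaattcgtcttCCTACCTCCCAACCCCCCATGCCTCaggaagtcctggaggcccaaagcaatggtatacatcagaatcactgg
Apod intron: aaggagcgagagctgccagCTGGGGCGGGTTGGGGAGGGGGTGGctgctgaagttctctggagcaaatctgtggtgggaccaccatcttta
Pmp22 distal: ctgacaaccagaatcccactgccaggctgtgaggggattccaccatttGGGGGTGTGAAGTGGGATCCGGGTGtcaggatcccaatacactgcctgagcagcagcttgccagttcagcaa
Lcp2 promoter: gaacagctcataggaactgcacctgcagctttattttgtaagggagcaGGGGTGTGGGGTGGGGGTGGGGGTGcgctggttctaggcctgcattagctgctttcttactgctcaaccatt

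Absence from both doxycycline lists and absence in the opposite direction, from both mock lists, were of similar frequency over all peaks, and their order depended on the peaks used. Of 30930 regions with a peak in both mock lists, 5123 (16.6%, interval 16.1 to 17.0%) had none in either doxycycline list, while of 29793 regions with a peak in both doxycycline lists, 4474 (15.0%, 14.6 to 15.4%) had none in either mock list. All 4 lists shared 17359 regions. With −log10 q of at least 2 in every list, 3135 shared mock-only and 1598 shared doxycycline-only regions met the rule, and among regions at most 50% repeat-masked 3144 and 782. With 1 kb or more to the nearest peak of the opposite pair the counts were 3851 and 2671. With the same number of highest-scoring peaks taken from every list the order turned, to 3464 and 4537. Presence alone does not measure sensitivity to RNaseH1, so the regions are named by the rule. The doxycycline lists contributed unequally, since 10971 of the 30930 regions (35.5%) lacked a GFP DOX peak and 7723 (24.97%) lacked a Cre DOX peak. When Cre DOX was left out, 11601 regions met the rule, and when GFP DOX was left out, 7802 did.

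**Figure D1:**
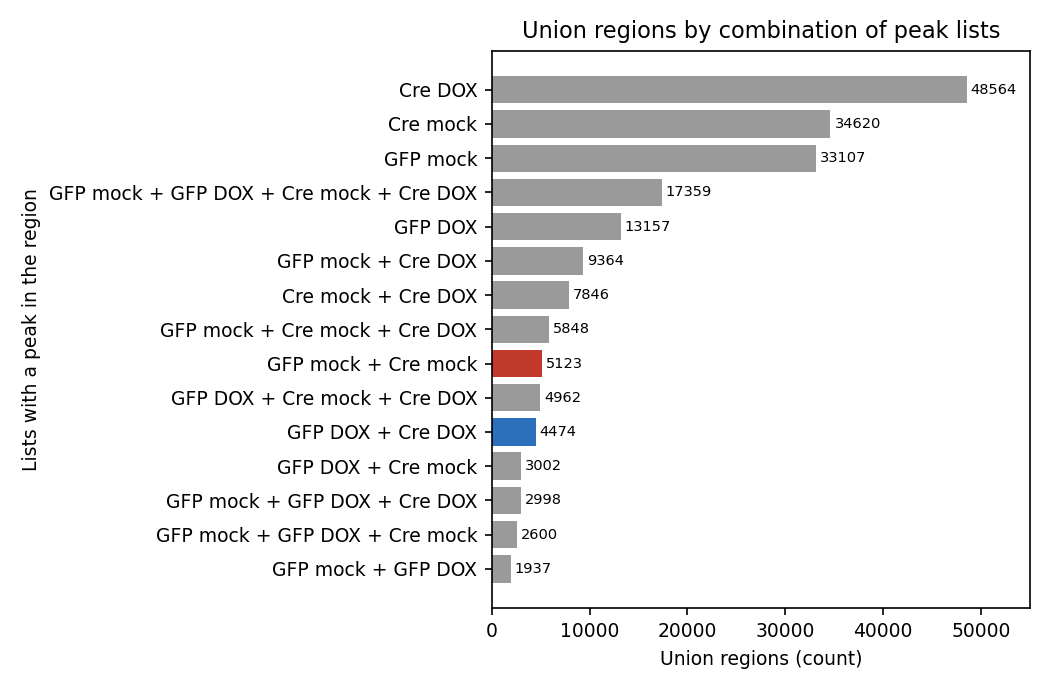
Number of union regions (x axis, count) for each of the 15 combinations of peak lists (y axis), with 1 library per list. The shared mock-only regions (red, 5123) and the mirrored shared doxycycline-only regions (blue, 4474) have similar counts, and regions of a single list are the most numerous of their kind for Cre DOX (48564).

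The regions were of moderate width and enrichment. Their median width was 433 bp (interval 423 to 443 bp; range 132 to 3081 bp), between the 406 bp of GFP mock with GFP DOX and the 511 bp of GFP DOX with Cre mock, and below the 740 bp of the shared doxycycline-only regions and the 2159 bp of regions of all 4 lists. Fold enrichment of the strongest peak in each region had a median of 3.59 in GFP mock (2.33 to 9.47) and 3.52 in Cre mock (2.21 to 9.85). The score (about 10 times −log10 q) ranged from 10 to 214 in GFP mock, with a median of 19, and from 10 to 189 in Cre mock, with a median of 20. A peak of the smallest width of its list was present in 1305 regions (25.5%). In 5077 of 5123 regions each mock list contributed 1 peak, and the peaks overlapped over a median of 93.1% of the shorter one, with midpoints a median of 93 bp apart. Only 346 regions (6.75%) were in the top decile of scores in both lists, and 3817 (74.5%) were in neither.

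Enrichment in GFP and Cre cells was loosely related across the regions. Pearson's r of fold enrichment was 0.41 and Spearman's rho 0.31 over 5123 regions, against 0.77 and 0.40 over the 17359 regions of all 4 lists. The fold reached 9.47 in GFP mock and 9.85 in Cre mock here, but 28.6 and 64.9 in regions of all 4 lists. With such unlike ranges the 2 values of r are not directly comparable. Points here are regions of the same 2 libraries and share their depth and local sequence, so no p-value is given. The fold was higher in Cre mock in 2274 regions (44.4%), but the lists are not normalised to each other.

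**Figure D2:**
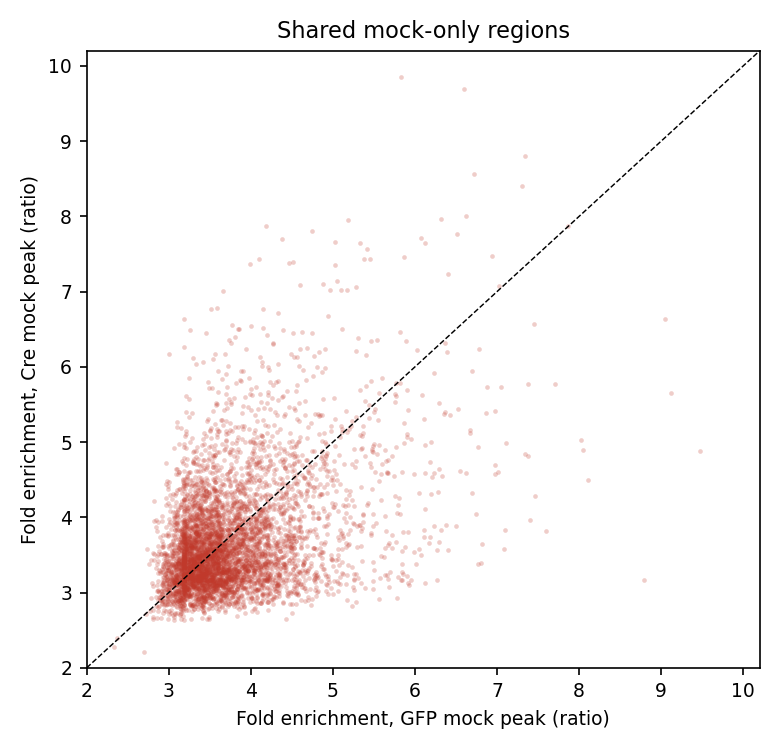
Fold enrichment over local background (ratio) of the strongest peak in GFP mock (x axis) and Cre mock (y axis) for each of the 5123 shared mock-only regions, with equality dashed. Most points lie near a fold of 3.5 in both lists, and the highest values in one list are often moderate in the other (r = 0.41).

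Absence from the opposite pair of lists was most frequent among weak peaks in both directions. Among regions of both mock lists, 25.5% (24.5 to 26.5%) of those at percentiles 0 to 25 (the lower of their 2 within-list percentiles) had no doxycycline peak, and 12.2% (11.5 to 12.9%) between percentiles 50 and 75, where the mirrored shares were 29.1% (28.1 to 30.2%) and 9.04% (8.44 to 9.68%). The share was 15.2% (13.2 to 17.3%) between percentiles 90 and 95 and 11.9% (10.1 to 14.0%) between 95 and 99, where the mirrored shares were 1.69% (0.967 to 2.72%) and 3.05% (1.90 to 4.63%). Above percentile 99, 11 of 477 regions were absent from both doxycycline lists (2.31%, 1.16 to 4.09%), and the mirrored share was 0.615% (0.0746 to 2.21%), with overlapping intervals. The strong shared mock-only regions were also the narrowest, with a median width of 173 bp above percentile 90 against 485 bp at percentiles 0 to 25. Between percentiles 90 and 95 the median width was 1072 bp for regions of both mock lists and 2413 bp for both doxycycline lists. Between 95 and 99 the medians were 719.5 and 1320 bp. The shares were not matched for width, and its part in the difference was not tested.

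**Figure D3:**
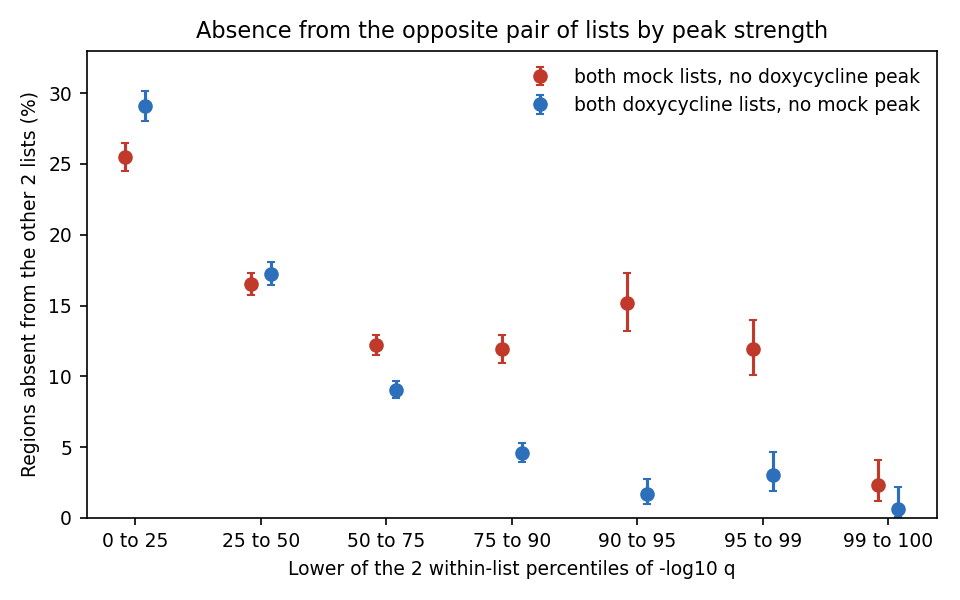
Share of regions (y axis, %) absent from the opposite pair of lists, by the lower of the 2 within-list percentiles of −log10 q (x axis), with exact 95% intervals. Red points are regions of both mock lists without a doxycycline peak and blue points regions of both doxycycline lists without a mock peak, and between percentiles 90 and 95 the red share is 15.2% and the blue share 1.69%. The shares are not matched for width. Between these percentiles the median over all regions counted was 1072 bp for both mock lists and 2413 bp for both doxycycline lists.

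The edge of the rule was thin in places. The nearest doxycycline peak lay a median of 4660 bp away (quartiles 1006 and 14410 bp), 200 regions had one within 100 bp, and 1707 (33.3%) had none within 10 kb. Just inside the rule, regions near *Ltbp3* (scores 15 and 15 in GFP mock and Cre mock) and *Efemp1* (13 and 20) touched a doxycycline peak without overlap, and a region near *Cadm1* (14 and 22) was 1 bp away. Just outside it, regions near *Knstrn* (14 and 14) and *Gm28710* (15 and 16) had 1 bp of mock peak under a doxycycline peak, and a region near *Hip1* (19 and 15) had 2 bp. In all, 384 of 25807 excluded regions had at most 100 bp of mock peak covered in this way.

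The 10 best-ranked regions were spread over 10 chromosomes, and none overlapped a protein-coding promoter. The first was the *C1qtnf7* region (chr5:43581179-43581336), with a score of 116 in GFP mock and one of 128 in Cre mock. The second lay in an intron of *Fut8*, the fucosyltransferase of N-glycan cores (chr12:77264535-77264695), with scores of 107 and 104. Introns of *Cnih3*, an auxiliary AMPA receptor subunit (88 and 116), *Ctdspl*, a small phosphatase gene (103 and 87), and *Apod*, a lipocalin gene (137 and 82), held 3 more. Another, with 85 in GFP mock and 189 in Cre mock, was intergenic, 11297 bp from the start site of *Emx1*, a forebrain homeobox gene. The others were intergenic with *Zfp787* (95 and 130), *Dhx35* (94 and 95) or *Rhobtb2* (83 and 101) as the nearest coding gene, or covered the small non-coding gene Gm22567 (82 and 138). Of these 10 regions, 8 were under 200 bp wide and their nearest doxycycline peak was 6980 to 91884 bp away.

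The regions were scattered across the genome but sparse on the X chromosome. Chromosome 11 had the highest density, 3.97 per Mb, and chromosome X the lowest of the chromosomes with at least 20 regions of both mock lists, 0.947 per Mb, and 2551 regions (49.8%) had another within 100 kb. As a share of regions of both mock lists, 29.3% (26.6 to 32.1%) on chromosome 9 and 5.65% (4.83 to 6.56%) on chromosome X lacked a doxycycline peak, beside the 16.6% of all chromosomes. Repeat content moved with this share, as 92.8% of the X-linked and 46.6% of the chromosome 9 regions of both mock lists were mostly repeat-masked. Among regions at most 50% masked, the share was 26.7% (20.8 to 33.3%) on chromosome X and 38.1% (34.1 to 42.2%) on chromosome 9. Chromosome X was not the lowest there, as chromosome 19 had 19.8% (15.98 to 24.1%).

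In sequence, the shared mock-only regions were GC-rich and held many G4s and purine tracts. Their median GC content was 50.0% (49.8 to 50.3%), against 38.9% in the shared doxycycline-only regions, 39.5% in regions of all 4 lists and 44.9% over the union. A predicted G4 lay in the central 300 bp of 2140 regions (41.8%, 40.4 to 43.1%), against 8.54% of shared doxycycline-only regions, 15.5% of regions of all 4 lists and 21.5% of all union regions. The window, placed on the middle of a region, reaches past the ends of regions narrower than 300 bp. Over the whole region the share was 50.95% (49.6 to 52.3%), against 44.2% (43.5 to 45.0%) in the much wider regions of all 4 lists. Among regions at most 50% masked, the order against regions of all 4 lists turned, with a whole-region share of 53.9% (52.2 to 55.7%) against 82.6% (81.5 to 83.7%) and a central share of 42.8% (41.1 to 44.6%) against 45.4% (44.0 to 46.9%). By a stricter pattern, 4 runs of at least 3 G with loops of 1 to 7 bases on either strand, the shares were 20.4% and, over the union, 9.06%. A purine tract of at least 25 bases, with A and G only on one strand, lay in the central 300 bp of 1233 regions (24.1%, 22.9 to 25.3%), against 2.12%, 4.69% and 8.70%. The tracts had a median length of 68 bases within that window and a median of 55.4% G among their purines, and all 1233 were soft-masked in the reference over more than 50% of their bases, as were the tracts of every other class examined. Tract and G4 occurred together in 845 regions, and 2528 (49.3%) had at least one of them.

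Most of these contrasts moved with the Cre DOX list. Over all regions of exactly 2 lists, the 3 pairs that did not include Cre DOX lay on one side of the 3 pairs that did, although they also differed among themselves. Among regions at most 50% masked this order was lost for purine tracts. There the share was 6.96% for GFP DOX with Cre mock and 9.15% for GFP mock with Cre DOX. Median GC was 50.0% for GFP mock with Cre mock, 49.4% for GFP mock with GFP DOX and 49.2% for GFP DOX with Cre mock, but 38.9 to 43.7% for the 3 pairs that included Cre DOX. Promoter overlap (within 1 kb of an annotated start site) was 22.6% (21.4 to 23.7%), 21.7% (19.9 to 23.6%) and 26.0% (24.4 to 27.6%) in the pairs without Cre DOX and 6.21 to 12.6% in the pairs with it. Among regions at most 50% masked this separation was lost, with 32.95%, 33.2% and 34.4% without Cre DOX and 26.4 to 35.2% with it. Mostly repeat-masked regions made up 38.6%, 43.6% and 28.3% of the former and 69.6 to 85.5% of the latter. A CpG-rich centre (GC of at least 50% and an observed to expected CpG ratio of at least 0.6) was found in 10.7%, 10.9% and 9.66%, against 1.38 to 2.74%, and among regions at most 50% masked in 16.3%, 18.2% and 13.1%, against 8.56 to 9.46%. When Cre DOX was left out of the rule, promoter overlap was 16.1% and the mostly repeat-masked share 61.4%. A site of the 5 restriction enzymes was missing from 77.1%, 76.4% and 71.4% of regions in the pairs without Cre DOX, and from 37.7 to 51.5% in those with it. Among regions at most 50% masked, these shares were 77.8%, 79.7% and 74.98% without Cre DOX and 71.7 to 76.2% with it. The part of the Cre DOX library in the contrast with the shared doxycycline-only regions was not tested otherwise.

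Over all regions, the shared mock-only regions had higher shares of purine tracts and predicted G4s than the other pairs without Cre DOX, with intervals that did not overlap. Tracts were present in 24.1% (22.9 to 25.3%), against 17.0% (15.4 to 18.8%) for GFP mock with GFP DOX and 11.1% (10.0 to 12.3%) for GFP DOX with Cre mock, and predicted G4s in 41.8%, against 34.7% (32.6 to 36.9%) and 31.9% (30.2 to 33.6%). Purine tracts were chosen as a feature after the sequences had been seen, so these shares are a description. The pairs were not matched for score. In the 326 shared mock-only regions above percentile 90, tracts were present in 18.4% (14.35 to 23.05%) and predicted G4s in 33.4% (28.3 to 38.8%). For regions of a single list, whose median width was under 300 bp except in Cre DOX (363 bp), the 300-bp window held a tract in 15.2% for GFP mock, 11.5% for Cre mock, 8.70% for GFP DOX and 4.37% for Cre DOX. Between regions of like width the shared mock-only regions had the highest share of these 3 pairs, while the order of the other pairs varied. At 200 to under 400 bp the tract share was 30.7% (28.4 to 33.05%), against 17.9% (15.0 to 21.1%) and 18.7% (15.98 to 21.7%), and at 600 to under 1000 bp it was 17.7% (15.4 to 20.1%), against 13.2% (9.98 to 17.1%) and 6.11% (4.57 to 7.98%), where the first interval overlaps. The tracts are themselves masked sequence, so a limit on masking removes some of them. Among regions at most 50% masked, the tract share was 13.5% (12.3 to 14.7%), not separated from the 11.1% (9.27 to 13.1%) of GFP mock with GFP DOX, and the G4 share was 42.8% (41.1 to 44.6%), against 42.4% (39.4 to 45.3%) there and 33.4% (30.1 to 36.8%) in the shared doxycycline-only regions.

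**Figure D4:**
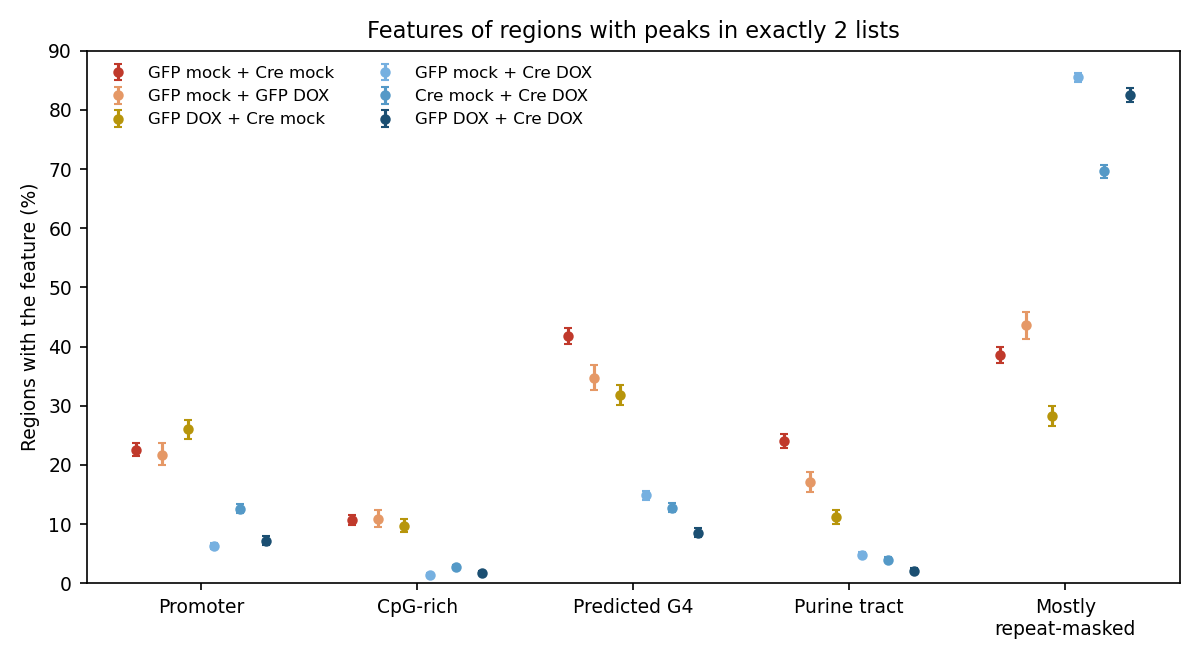
Share of regions (y axis, %) with each feature (x axis) for the 6 combinations of exactly 2 lists, with exact 95% intervals; promoter means within 1 kb of a start site, and CpG-rich centre, G4 and purine tract refer to the central 300 bp. For each feature the 3 pairs without Cre DOX (red, orange, ochre) lie on one side of the 3 pairs with it (blues), although they differ among themselves, and the shared mock-only regions are highest for predicted G4s (41.8%) and purine tracts (24.1%).

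Purine tracts within genes were more often on the antisense strand. Among regions in genes of 1 strand and outside promoters, the purine strand was the sense strand in 180 of 466 regions with a tract on one strand only (38.6%, 34.2 to 43.2%). Regions of all 4 lists (36.8%, 30.6 to 43.5%) and of GFP mock alone (41.1%, 39.0 to 43.3%) had overlapping intervals. For predicted G4s the sense share was 46.3% (42.5 to 50.0%).

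Promoters held 1156 of the shared mock-only regions, and these lay around and just downstream of the start site. By midpoint, 253 regions (4.94%) were in the first 250 bp downstream of the nearest protein-coding start site and 185 (3.61%) in the 250 bp upstream, against 40 (0.894%) and 37 (0.827%) of the shared doxycycline-only regions. Repeat content moved with both comparisons. A midpoint within 1 kb of any start site was found in 20.3% of shared mock-only regions and 13.4% of regions of all 4 lists, but among regions at most 50% masked in 29.8% (28.2 to 31.4%) and 47.3% (45.9 to 48.8%). For shared doxycycline-only regions the share was 5.54% over all regions. Among those at most 50% masked it was 27.0% (23.9 to 30.2%), an interval that overlaps that of the shared mock-only regions. Median GC of the central 300 bp was 64.3% downstream and 59.3% upstream of the start site, within 1 kb. The non-template (sense) strand was G-rich over C in 310 of 516 downstream regions (60.1%, 55.7 to 64.3%), close to the 60.2% (57.4 to 63.0%) of regions of all 4 lists.

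**Figure D5:**
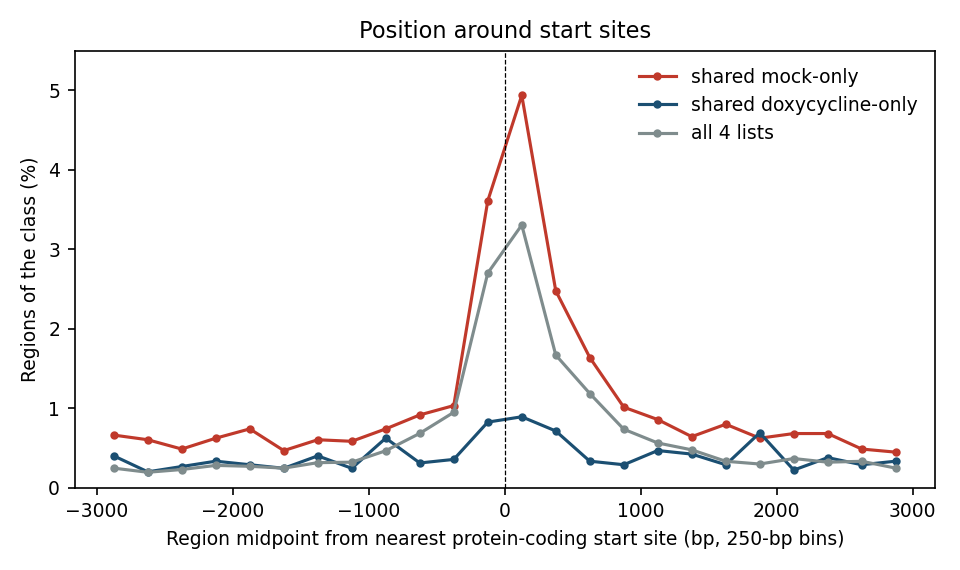
Share of regions of each class (y axis, %) by the position of their midpoint relative to the nearest protein-coding start site (x axis, bp in 250-bp bins, positive downstream). The shared mock-only regions peak at 4.94% in the first bin downstream. There the share is 3.31% of regions of all 4 lists and 0.894% of the shared doxycycline-only regions. The classes are not matched for repeat content, with 38.6%, 73.5% and 82.5% mostly repeat-masked in the same order. Among regions at most 50% masked, a midpoint within 1 kb of any start site was found in 29.8%, 47.3% and 27.0%. The intervals of the shared mock-only (28.2 to 31.4%) and shared doxycycline-only regions (23.9 to 30.2%) overlap there.

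Promoter regions touched 947 of 21951 protein-coding genes (4.31%) and 1293 of 55450 annotated genes of all kinds (2.33%). The best ranked overlapped a UTR of *Zfp750*, the gene of an epidermal differentiation factor (chr11:121518187-121518371), with a score of 64 in GFP mock and one of 115 in Cre mock. It was followed by introns close to the start sites of *Rbm28*, which encodes a nucleolar RNA-binding protein (68 and 64), *Lamtor3*, a lysosomal Ragulator subunit (60 and 69), and *Scn8a*, a voltage-gated sodium channel (94 and 57). The *Rbm28* region was 187 bp from a doxycycline peak and the *Lamtor3* region 14429 bp.

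The rest of the 15 best-ranked protein-coding promoters were of mixed function. *Gulp1*, an engulfment adaptor gene (51 and 73), *Crp* (53 and 50) and *Itm2c*, a transmembrane protein gene (46 and 55), came next. *Lcp2* (79 and 46), *Ndel1*, a dynein regulator gene (56 and 43), *Pgap2*, a gene of GPI anchor maturation (42 and 49), and *Calcoco1*, an autophagy receptor gene (42 and 63), followed. *Snx10*, a sorting nexin gene (47 and 41), *Kcnd3*, a potassium channel gene (40 and 48), *Smco2* (39 and 39) and *Tspan1*, a tetraspanin gene (41 and 39), completed the list. The *Kcnd3* region (chr3:105452061-105453001) was the widest at 941 bp and the most GC-rich at 75.9%.

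The gene lists below are described by counts without a test. Among them, developmental transcription factors had the largest number of promoter regions. Of 180 genes of the Hox, Sox, Pax, Tbx, Dlx, Fox and related families, 18 (10.0%, 6.04 to 15.3%) had one, beside 4.31% of all protein-coding genes, while 3 (1.67%, 0.345 to 4.79%) had a shared doxycycline-only region, beside 1.19% of all protein-coding genes. A region of all 4 lists was at 40 of the 180 promoters (22.2%, 16.4 to 29.0%), beside 12.1% of all protein-coding genes. *Tbx18*, a T-box gene of mesenchyme and heart, had a score of 48 in GFP mock and one of 38 in Cre mock (chr9:87730296-87730804). *Hoxa13*, the distal limb Hox gene, had 21 and 25, and *Hoxb3* had 18 and 21. Zinc finger genes were at 14 of 458 (3.06%, 1.68 to 5.08%), led by *Zfp750*, *Zfp641* (52 and 27), *Zfp319* (29 and 27) and *Zfp68* (19 and 34).

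Promoters with a region of all 4 lists outnumbered those with a shared mock-only region over all protein-coding genes (12.1% against 4.31%) and in most lists. Cytosolic ribosomal protein genes had a promoter region in 2 of 80 cases (2.5%, 0.304 to 8.74%), among them *Rpl31* (15 and 12), while 34 of the 80 (42.5%, 31.5 to 54.1%) had a region of all 4 lists. Actin, tubulin and motility genes had 1 of 34, *Tubb6* (21 and 25), against 16 with a region of all 4 lists (47.1%, 29.8 to 64.9%). Immediate early genes had 2 of 28, *Junb*, an AP-1 subunit gene (20 and 22), and *Klf2* (14 and 26), against 13 (46.4%, 27.5 to 66.1%). Replication-dependent histone genes had 2 of 67, and these were the divergent pair *Hist1h2bl* and *Hist1h2ai*, which share 1 region (33 and 20), with 0 in regions of all 4 lists. None of 37 R-loop and G4 processing factors had one (interval 0 to 9.49%), and 9 had a region of all 4 lists. Gene bodies held a shared mock-only region in 2 of the 37 (5.4%, 0.66 to 18.2%), beside 10.6% of all protein-coding genes. These were *Samhd1*, a dNTP hydrolase gene (18 and 15), and *Blm*, a RecQ helicase gene (13 and 15), with 1 each.

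The other lists gave small counts, to be read beside the 4.31% of all protein-coding genes with a shared mock-only region in a promoter. Regions of all 4 lists were at 4 of 32 fibroblast matrix, 6 of 20 p53 response and 7 of 38 replication gene promoters. They were also at 56 of 458 zinc finger and 29 of 1420 receptor gene promoters and at 4 of 19 nuclear RNA promoters. The share of all protein-coding genes with one was 12.1%. Fibroblast matrix genes had 3 of 32 (9.38%, interval 1.98 to 25.02%, which includes 4.31%), *Ccn1* (26 and 27), *Col6a1* (17 and 34) and *Col5a1* (18 and 17). Of the p53 response genes, 1 of 20 (5.0%, 0.13 to 24.9%) had a promoter region, *Cdkn1a*, which encodes the p21 inhibitor of cyclin-dependent kinases (20 and 14). Of the DNA replication and checkpoint genes, 1 of 38 (2.63%, 0.0666 to 13.8%) had one, *Mcm3*, a subunit of the replicative helicase (15 and 19), 54 bp from a doxycycline peak. Both of these intervals include 4.31%. Abundant nuclear non-coding RNAs had 1 of 19 (5.26%, 0.133 to 26.0%), *Terc*, the telomerase RNA (15 and 14), beside 2.33% of all annotated genes. Odorant and vomeronasal receptor genes had 6 of 1420 (0.423%, 0.155 to 0.917%), led by *Vmn1r19* (20 and 36), *Vmn1r50* (24 and 20), *Olfr544* (19 and 41) and *Olfr282* (18 and 24).

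Gene bodies held regions in 2328 of 21951 protein-coding genes (10.6%), and length moved with this count. The share rose from 3.17% of genes under 10 kb to 42.6% (36.1 to 49.3%) of the 230 genes of at least 500 kb, while the density fell from 6.90 to 0.969 regions per Mb of gene. Of 28 large genes of common fragile sites, 16 (57.1%, 37.2 to 75.5%) held one, with 0.683 regions per Mb, below the 2.63 per Mb of all protein-coding genes and the 0.969 per Mb of those of at least 500 kb. Promoter regions were present at 3 of the 28 (10.7%, 2.27 to 28.2%), beside 4.31% of all protein-coding genes, which the interval includes. A region of all 4 lists was at 1 of the 28 promoters. Among the 3, *Nbea* had 16 and 17 and *Tenm3* 19 and 17, and the best-ranked body region was in *Auts2* (80 and 53).

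Most genes with a region in the body had a single one, 1975 of the 2328. The read-through gene model Gm20388, which spans 4434882 bp on chromosome 8 and covers many other genes, held 32. The lincRNA gene Gm26848 held 8 in 178982 bp, with no shared doxycycline-only region. *Rbfox3*, which encodes the neuronal splicing factor NeuN, held 7 and no region of all 4 lists. *Megf11*, *Gse1*, *Sox5* and *Asic2* held 6 each, and of these *Gse1* lies within Gm20388.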

How the data were processed

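DRIP-seq was carried out by the authors on 8 samples, of which 4 were S9.6 immunoprecipitations and 4 were inputs that were not analysed here. DNA was cut with 5 restriction enzymes, parallel immunoprecipitations of a condition were pooled before 1 library was made, and the spread between them is therefore lost. The authors aligned reads with BWA to mm10 and called peaks per library with MACS2 through nf-core/chipseq. The deposited lists are in broad-peak format, although the stated command asks for narrow peaks, and the use of inputs as control is not given in the sources used here. The deposited score is about 10 times the −log10 q-value. The deposited fold enrichment is a ratio to local background. The deposited −log10 q-value ranks peaks within a list, and the deposited −log10 p-value was not used. None is normalised between libraries, and a region without a listed peak may still hold signal.

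Here, peaks of all scores were merged with Python 3.11.15, numpy 2.4.6, pandas 2.3.3 and scipy 1.17.1. Sequence came from GRCm38.p6, with lower-case bases taken as masked, and genes from GENCODE M21 (55450 genes, 141767 transcripts). Promoters extended 1000 bp to either side of any start site. G4Hunter used windows of 25 bases and runs scored up to 4. The code was tested on simulated data. The gene names in the text are those of the 10 best-ranked regions, the 15 best-ranked with a protein-coding promoter, up to 4 per gene list, the genes with the most regions in the body (7 because of ties) and 3 regions on each side of the rule, and some items that this rule names are not reported here. The regions and gene lists were chosen with earlier results of these data known, the purine tract (25 bases or more) was chosen as a feature after sequences had been seen, and the histone list was narrowed to replication-dependent genes after its matches were seen. Alternatives changed peak scores, numbers of peaks, merging, overlap, repeats, promoter width and G4 definition, or left out a doxycycline list.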

Additional observations from a re-analysis of the deposited data

How the results depend on the processing

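With 1 library per condition, none of these values carries a test, and no paired analysis was possible because the groups share only 1 replicate number and no value comes from a test. The shared mock-only regions numbered 3135 with −log10 q of at least 2 in all lists, 1537 when this held for mock peaks only, 346 with mock peaks in the top decile, and 3144 among regions at most 50% repeat-masked. The mirrored count was 1598, 10984, 23666 and 782 in the same order, and 2671 with a distance of 1 kb between opposite peaks. With equal numbers of peaks it was 4537 against 3464 shared mock-only regions, so the order of these counts turned. The filters on mock peaks alone (and a required overlap of mock peaks, with 4287 against 4474) leave the doxycycline lists whole, which by construction lowers the first count and raises or keeps the mirrored one, while the filter on all lists kept the order. Promoter overlap was 24.9%, 19.6%, 14.7% and 32.95% in that order, 18.3% and 29.0% with promoters of 500 bp and 2 kb, 20.3% by midpoint and 18.1% for protein-coding genes. Predicted G4s anywhere in the region, 51.0% as a rule, were at 48.8%, 44.3%, 32.1% and 53.9% in that order, 47.0% with equal numbers of peaks, 53.3% with peaks merged over 500 bp, 27.1% at a G4Hunter score of 2 and 27.4% by the regular expression. Mostly repeat-masked regions were at 42.0%, 35.8% and 24.0% with the 3 score filters, 43.1% with equal numbers of peaks and 36.4% with merging. Median GC was 50.3% and 48.9% with the mock filters, 49.5% with equal numbers and 51.8% among regions at most 50% masked. Purine tracts were at 20.4%, 26.1%, 18.2% and 13.5% in the order above, 22.1% with equal numbers, 27.6% with the 1 kb distance, and 28.2% and 21.6% for tracts of 20 and 30 bases, 2 settings chosen after seeing the data. Leaving out GFP DOX or Cre DOX, also chosen after seeing the data, gave 7802 and 11601 regions, promoter overlap of 26.5% and 16.1%, predicted G4s in 53.3% and 38.0%, mostly masked shares of 35.3% and 61.4%, median GC of 50.6% and 46.3%, and tracts in 22.4% and 13.9%. The causes were not tested. Read depth is not part of the lists, so weak peaks near the calling threshold cannot be separated from undersampled ones.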
